A study of Mus musculus with 9 samples.

Results

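The genes described here are the Wnt ligands, their receptors, the secreted Wnt antagonists, and the feedback inhibitors and TCF/LEF factors that read out Wnt signalling. They were taken by gene symbol from the table of counts: every Wnt, Fzd, Sfrp and Dkk gene, and Axin2, Lef1, Tcf7, Nkd1, Nkd2, Wif1, Apcdd1, Lrp5, Lrp6, Rnf43 and Znrf3. This gave 48 of 25860 genes, made up of 19 ligands, 12 receptors, 9 secreted antagonists, 6 feedback inhibitors and 2 TCF/LEF factors. RNA was sequenced from calvarial (skull roof) cells of newborn mice that were sorted for Osx1-Cre, a Cre transgene driven by osterix (Sp7) regulatory sequence, and grown in culture. There were 5 IRE1KO and 4 WT libraries. Each came from a pool of 3 to 5 pups aged 2 to 4 days, the medium held 10% serum, and RNA was taken at 90% confluence. As the design text is worded, the WT cells were sorted for the transgene too, while the Ern1 allele and the mouse strain were not stated in the labels.

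Wnt proteins are secreted lipid-modified ligands that bind a Frizzled receptor. With the coreceptors Lrp5 or Lrp6 they stop the destruction of beta-catenin, which then acts with TCF/LEF factors on target genes, several of which (Axin2, Nkd1, Znrf3, Apcdd1) damp the pathway again. Other ligands, Wnt5a above all, act largely without beta-catenin. In bone, Wnt signalling through Lrp5 raises bone mass and favours osteoblasts over chondrocytes and adipocytes. IRE1, the product of Ern1, is a stress sensor of the endoplasmic reticulum, and the comparison asks what its loss does in cells of the osteoblast lineage.

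The libraries held 18784636 to 22028075 counts, and levels are given as CPM, the counts scaled to a common library size by TMM. A count of 3, used as the floor, was worth 0.137 to 0.159 CPM. Ern1 was at 49.7 to 55.8 CPM in IRE1KO and 41.5 to 54.2 CPM in WT libraries (adjusted p = 0.306, edgeR). Being a total over the gene, this checks no deletion of exons. Of the defining lineage genes, Runx2 was at 63.6 to 69.4 CPM in IRE1KO and 59.8 to 75.1 CPM in WT, and Sp7 at 15.6 to 21.2 and 13.6 to 24.6 CPM, while Bglap (osteocalcin) was at most 0.192 and 0.103 CPM. WT library 4 stood apart from the other libraries, at 50.4 on a first principal component holding 49.2% of the variance, where the other 8 lay between -21.6 and 12.6. All libraries were made and sequenced in 1 batch, and the labels give no litter or culture day.

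Of the 48 genes, 34 had enough counts to be tested. None passed the quasi-likelihood test of edgeR at an adjusted p of 0.05, which called 0.634% of all 13712 tested genes, 0.255% as higher and 0.379% as lower. At an unadjusted p under 0.05 there were 9 (26.5%), against 16.5% of all tested genes. Of these, 5 were higher and 4 lower in IRE1KO, against 7.14% and 9.36% of all tested genes. DESeq2 called 5 of the 34, against 4.14% of all genes, and limma voom 0, against 0.117%. With edgeR's dispersions estimated without robustness 0 were called, against 0.7% of all genes. The groups did not overlap for 4 of the 34 (11.8%), against 6.94% of all tested genes. These were Axin2, Wnt9a and Wnt2b, with IRE1KO above WT (3.66% of all tested genes), and Wif1, with IRE1KO below WT (3.28%). The median log2 fold change (IRE1KO over WT) was -0.082 over the 34 genes and -0.0050 over all tested genes. These are bulk libraries, in which fewer cells of a type and less RNA per cell cannot be told apart.

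**Figure D1:**
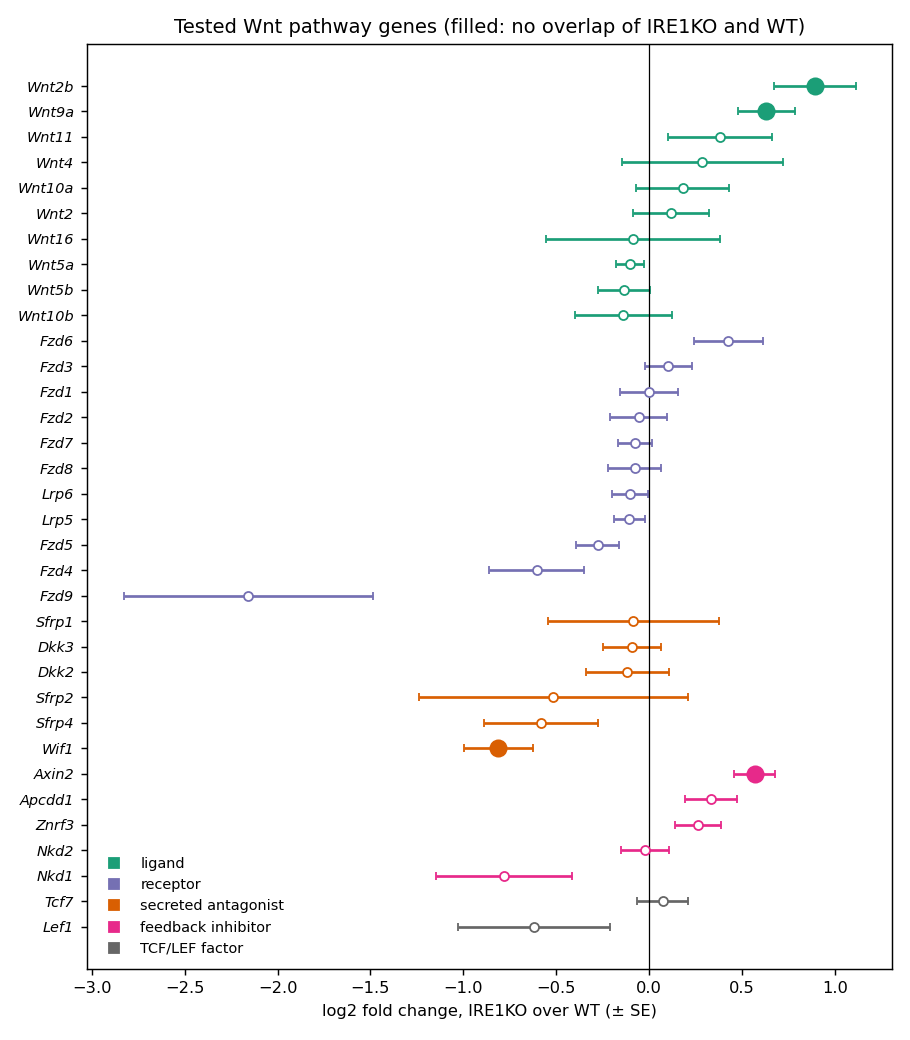
Log2 fold change of IRE1KO over WT for the 34 tested genes (x axis, with SE bars), grouped by role from ligands at the top to TCF/LEF factors at the bottom. Filled points mark Axin2, Wnt9a, Wnt2b and Wif1, whose IRE1KO and WT libraries did not overlap, and the widest bars belong to Sfrp2 and Fzd9.

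Axin2 encodes a scaffold of the complex that marks beta-catenin for destruction and is itself a widely used target of the pathway. It had 9.07, 8.80, 10.1, 8.61 and 10.2 CPM in the 5 IRE1KO libraries, against 6.89, 6.46, 5.05 and 6.84 CPM in the 4 WT libraries. The lowest IRE1KO library thus lay above the highest WT library. Axin2 was 1.48-fold higher on average (log2 fold change 0.57 ± 0.11 SE), and the adjusted p was 0.0605 (edgeR). Without WT library 1 the adjusted p was 0.022, and without WT library 4 it was 0.0327 (edgeR). These were the WT libraries nearest to IRE1KO, so leaving out either one widened the difference by construction. Of the 9 fits with 1 library left out, Axin2 passed only these 2. Over all 17 alternatives it passed 3, and the adjusted p ran from 0.00097 (DESeq2) to 0.324. The fits without WT library 1 and without WT library 4 called 8.63% and 2.9% of all tested genes, against 0.634% with all libraries. Axin2 lies on chromosome 11 from 108920349 to 108950783 (GRCm38), 2.43 Mb from Ern1. An antisense neighbour, Gm11670, had at most 3 counts in any library. Also within 10 Mb of Ern1 are Fzd2 (3.79 Mb), Wnt3 (2.58 Mb) and Wnt9b (2.64 Mb), of which Wnt3 and Wnt9b had 0 counts and Fzd2 a log2 fold change of -0.06 ± 0.15 SE. The part that position plays was not tested.

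The 2 ligands that did not overlap were Wnt9a and Wnt2b, both ligands that can act through beta-catenin. Wnt9a, known for its role in joint formation, had 21.98, 24.0, 22.8, 20.3 and 26.7 CPM in IRE1KO libraries, against 20.01, 15.3, 12.1 and 12.3 CPM in WT libraries. WT library 1 lay just under the lowest IRE1KO library, and the other WT libraries were further down. Wnt9a lies on chromosome 11 from 59306928 to 59333552, and Wnt2b on chromosome 3 from 104945272 to 104961921 (GRCm38). The log2 fold change of Wnt9a was 0.63 ± 0.15 SE (adjusted p = 0.103 in edgeR, 0.0067 to 0.266 over the alternatives), and without WT library 1 it was 0.80 with an adjusted p of 0.0071. Wnt2b had 14.2, 17.1, 11.4, 14.3 and 13.0 CPM in IRE1KO libraries, against 11.3, 6.26, 5.00 and 7.63 CPM in WT libraries. IRE1KO library 3 and WT library 1 nearly met. The log2 fold change of Wnt2b was 0.89 ± 0.22 SE (adjusted p = 0.109 in edgeR, 0.0064 to 0.253 over the alternatives), and without WT library 1 it was 1.15 with an adjusted p of 0.0082. For both ligands that fit left out the WT library nearest to IRE1KO, and it called 8.63% of all tested genes.

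Wif1, a secreted protein that binds Wnt ligands and blocks them, was the gene without overlap in the other direction. It had 1.55, 1.59, 2.28, 1.46 and 1.92 CPM in IRE1KO libraries, against 2.40, 3.64, 3.38 and 2.92 CPM in WT libraries. The groups came close between IRE1KO library 3 and WT library 1, and a library held 31 to 71 counts of Wif1. The gene lies on chromosome 10 from 121033960 to 121100650 (GRCm38). The log2 fold change was -0.81 ± 0.18 SE (adjusted p = 0.0837 in edgeR, 0.0113 to 0.264 over the alternatives), and without WT library 1 it was -0.92 with an adjusted p of 0.0235. Here too the library left out was the WT library nearest to IRE1KO, and 8.63% of all tested genes were called.

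**Figure D2:**
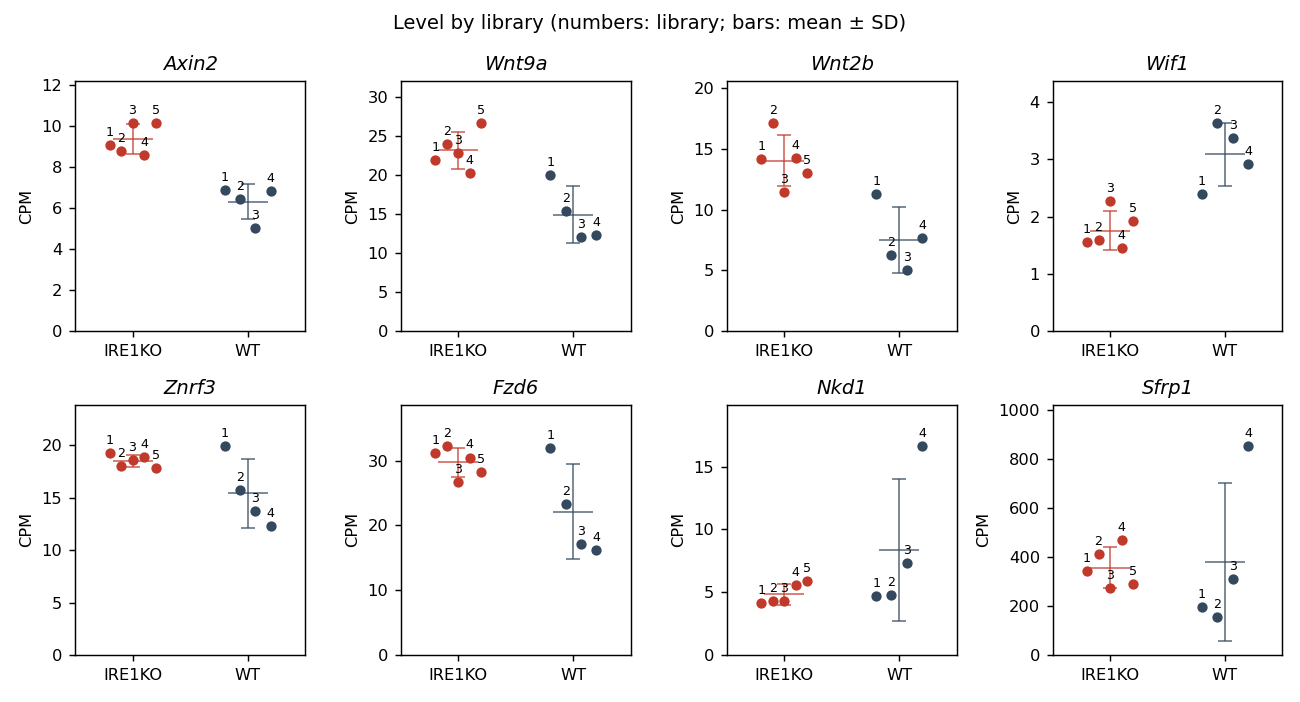
CPM (y axis, from 0) of 8 genes in the 5 IRE1KO libraries (left in each panel) and the 4 WT libraries (right). Points carry library numbers and bars give the mean ± SD. Axin2, Wnt9a, Wnt2b and Wif1 show no overlap, WT library 1 sits among or near the IRE1KO libraries for Wnt9a, Znrf3 and Fzd6, and WT library 4 is the highest for Nkd1 and Sfrp1.

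Sequence before the start of these 4 genes is shown because the groups did not overlap for them. It comes from RefSeq windows of 250 bases before the RefSeq start on GRCm38.p6, written 5′ to 3′ along the gene's strand, with CpG dinucleotides in capitals. The starts differ between annotations: 212 bases of the Wnt2b window, 44 of the Wif1 window and 2 of the Wnt9a window lie inside the gene as GENCODE has it, and only the bases before the GENCODE gene are printed. These are chr11:108920099-108920348 for Axin2 (plus strand), chr11:59306680-59306927 for Wnt9a (plus strand), chr3:104961922-104961959 for Wnt2b (minus strand) and chr10:121033754-121033959 for Wif1 (plus strand).
Axin2: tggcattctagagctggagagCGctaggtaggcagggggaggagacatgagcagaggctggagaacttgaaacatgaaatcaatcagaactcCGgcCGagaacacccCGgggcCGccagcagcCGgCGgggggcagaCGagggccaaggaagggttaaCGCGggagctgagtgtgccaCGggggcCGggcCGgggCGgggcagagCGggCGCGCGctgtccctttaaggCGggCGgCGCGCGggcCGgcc
Wnt9a: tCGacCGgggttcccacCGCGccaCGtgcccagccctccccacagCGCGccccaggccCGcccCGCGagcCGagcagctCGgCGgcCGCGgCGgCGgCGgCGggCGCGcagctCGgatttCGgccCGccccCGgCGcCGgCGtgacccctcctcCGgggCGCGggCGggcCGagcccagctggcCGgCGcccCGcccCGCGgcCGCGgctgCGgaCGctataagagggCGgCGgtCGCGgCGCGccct
Wnt2b: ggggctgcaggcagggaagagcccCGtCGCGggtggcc
Wif1: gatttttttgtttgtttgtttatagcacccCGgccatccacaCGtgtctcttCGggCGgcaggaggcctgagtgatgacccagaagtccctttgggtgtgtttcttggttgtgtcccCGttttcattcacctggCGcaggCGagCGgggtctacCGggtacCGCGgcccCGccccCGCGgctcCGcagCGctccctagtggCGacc
Over the whole window of 250 bases, Wnt9a held 48 CpG dinucleotides at 84.4% GC, Wnt2b 36 at 80.8%, Axin2 24 at 69.2% and Wif1 21 at 62.8%. The median over 32851 RefSeq windows was 6, and 0.186%, 2.58%, 12% and 16.3% of windows held at least as many CpG as Wnt9a, Wnt2b, Axin2 and Wif1. The core letters bound by TCF/LEF factors, CTTTGA or CTTTGT on either strand, were searched from 250 bases before to 50 bases after the start. They are not in the windows of these 4 genes, and 31.2% of all windows hold them. Sequence outside the windows was not searched, so this does not show that the 4 genes lack these letters elsewhere. Of 32 Wnt pathway genes with a RefSeq window, 9 held them, Lef1, Fzd1, Fzd7, Dkk2, Wnt11 and Wnt5b among those that were tested. The letters TGACGTG, bound by XBP1, are not in the 4 windows either and occur in 2.01% of all windows. Of the 32 Wnt pathway genes with a window, Wnt11 held them. No other letters were searched for XBP1, so the search does not show that the 4 windows lack sites for it.

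Among the ligands, 10 of 19 were tested. Levels of different genes are compared as RPKM, the CPM divided by the annotated exon length in kb. Wnt5a, the main ligand of beta-catenin-independent signalling, was the most abundant ligand at 11.2 ± 0.74 RPKM (SD, n = 5) in IRE1KO and 12.0 ± 1.27 RPKM (SD, n = 4) in WT. Wnt9a followed at 6.95 ± 0.72 and 4.49 ± 1.11 RPKM, Wnt5b at 3.76 ± 0.40 and 4.14 ± 0.84 RPKM, Wnt2b at 3.33 ± 0.50 and 1.80 ± 0.65 RPKM, and Wnt2 at 2.13 ± 0.19 and 1.96 ± 0.62 RPKM. In IRE1KO the RPKM ranges of neighbours in this order met only between Wnt5b (3.14 to 4.26) and Wnt2b (2.72 to 4.08). In WT they met between Wnt9a (3.64 to 6.01) and Wnt5b (3.27 to 5.02) and between Wnt2b (1.19 to 2.69) and Wnt2 (1.18 to 2.65).

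Wnt5a itself had 85.4, 97.8, 85.2, 85.6 and 83.9 CPM in IRE1KO libraries, against 106, 92.1, 82.2 and 96.3 CPM in WT libraries. The groups overlapped, and the log2 fold change was -0.10 ± 0.075 SE (adjusted p = 0.518, edgeR). Its share of the summed ligand RPKM was 36.7%, 36.2%, 35.7%, 35.9% and 33.5% in IRE1KO libraries, against 42.7%, 42.5%, 41.6% and 43.2% in WT libraries. Every IRE1KO library had a smaller Wnt5a share than any WT library. The sum holds Wnt9a and Wnt2b, however, which were already seen to be higher in IRE1KO. Their rise lowers the Wnt5a share by arithmetic, so the share is no separate result on Wnt5a. Wnt9a made up 20% to 25% of the ligand sum in IRE1KO and 12.9% to 18.95% in WT, and Wnt2b 8.91% to 11.8% and 4.71% to 8.47%. The ligand sum itself was 29.7 to 34.6 RPKM in IRE1KO and 25.3 to 31.7 RPKM in WT, so that its ranges overlapped. These shares were worked out after the values of the single genes had been seen, and carry no test.

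**Figure D3:**
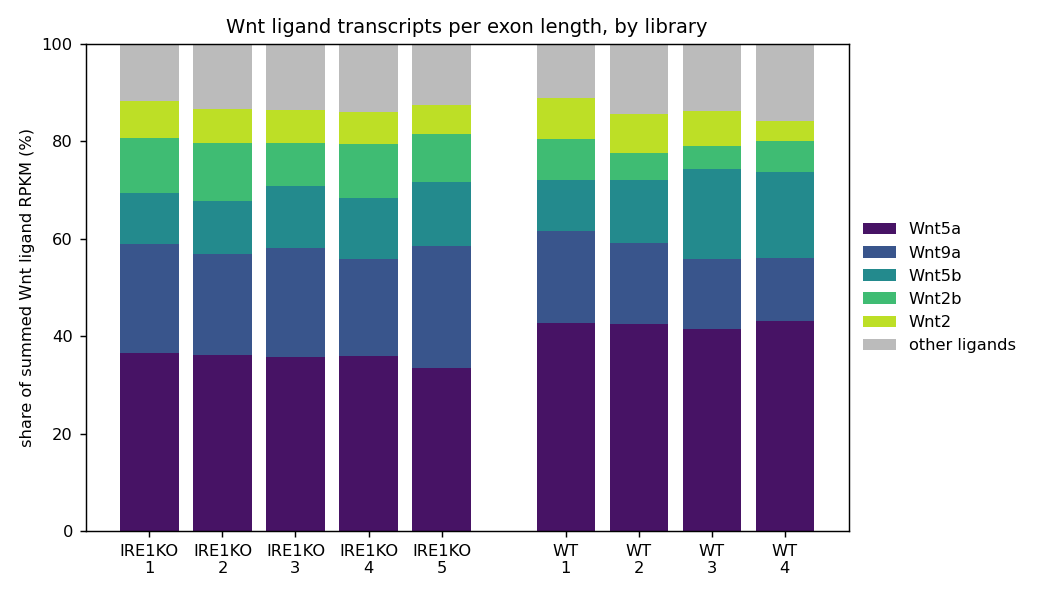
Share of the summed Wnt ligand RPKM (y axis, 0 to 100%) taken by each ligand in the 5 IRE1KO libraries (left) and 4 WT libraries (right). The Wnt5a share is 33.5% to 36.7% in IRE1KO and 41.6% to 43.2% in WT, and the Wnt9a and Wnt2b shares are larger in each IRE1KO library than in any WT library. The shares of a library add up to 100%, so larger Wnt9a and Wnt2b shares leave less for Wnt5a.

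The other tested ligands overlapped between the groups. Wnt5b had 8.34 to 11.3 CPM in IRE1KO and 8.68 to 13.3 CPM in WT, and shares its place with Fbxl14 on the opposite strand, so that reads of the pair could not be told apart if strand was not used in counting. Wnt11, a ligand of cell movement, had 2.88 to 4.56 CPM in IRE1KO and 1.62 to 4.39 CPM in WT. Wnt16, which protects cortical bone, ranged from 3.50 to 6.50 CPM in IRE1KO, against 1.99, 2.62, 4.19 and 10.97 CPM in WT. Wnt10b, a ligand that promotes bone formation, had 1.94 to 3.61 CPM in IRE1KO and 1.93 to 4.21 CPM in WT. Wnt4 and Wnt10a had at most 4.61 and 2.00 CPM in any library. Wnt3, Wnt3a and Wnt9b had 0 counts in all 9 libraries, and Wnt1, Wnt7a, Wnt8a and Wnt8b summed to 1 or 2 counts. Wnt6 and Wnt7b reached at most 9 and 16 counts in any library. At this depth such ligands were at or near the floor, which does not show that they are absent.

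The receptor genes showed mostly small differences. Per exon length, Fzd1, Fzd7 and Fzd2 led among the receptors, at 23.9 ± 0.95, 19.3 ± 0.84 and 17.2 ± 0.93 RPKM (SD, n = 5) in IRE1KO and 23.8 ± 6.93, 20.4 ± 3.18 and 17.9 ± 5.09 RPKM (SD, n = 4) in WT. The coreceptors Lrp6 and Lrp5 followed at 12.6 ± 0.25 and 8.86 ± 0.86 RPKM in IRE1KO and 13.5 ± 2.39 and 9.54 ± 0.87 RPKM in WT. In IRE1KO the RPKM ranges of Fzd7 (18.4 to 20.6) and Fzd2 (16.4 to 18.7) met, and those of the other neighbours in this order did not. In WT the ranges of Fzd1, Fzd7 and Fzd2 all overlapped, and that of Fzd2 (14.6 to 25.4) met that of Lrp6 (12.1 to 17.1). By library, Fzd1 had 97.4 to 107 CPM in IRE1KO and 77.7 to 142 CPM in WT, Fzd7 83.6 to 93.5 and 78.2 to 111 CPM, and Fzd2 59.9 to 68.6 and 53.5 to 93.1 CPM. The IRE1KO libraries of all 3 lay inside the WT range.

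Fzd6, a Frizzled that can restrain beta-catenin signalling and acts in planar polarity, had 31.1, 32.2, 26.7, 30.5 and 28.2 CPM in IRE1KO libraries, against 32.0, 23.3, 17.1 and 16.2 CPM in WT libraries. WT library 1 lay among the IRE1KO libraries and the other 3 below them. For Fzd6 the log2 fold change was 0.43 ± 0.18 SE (adjusted p = 0.290 in edgeR), and without WT library 1 it was 0.66 with an adjusted p of 0.0194, the range over the alternatives being 0.0194 to 0.543. The fit without WT library 1 called 8.63% of all tested genes. Fzd9, a Frizzled with a role in bone formation, had 0.728, 0.819, 0.584, 1.23 and 0.863 CPM in IRE1KO libraries, against 1.58, 0.975, 2.27 and 10.4 CPM in WT libraries. WT library 4 held most of the WT reads, and the log2 fold change of -2.16 ± 0.67 SE became -0.92 without it. Its adjusted p was 0.180 in edgeR, and 0.0269 to 0.353 over the alternatives. Fzd4, also the receptor of norrin, had 8.63 to 11.8 CPM in IRE1KO, against 10.98, 9.95, 12.7 and 24.6 CPM in WT.

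Fzd5 had 38.4 to 41.1 CPM in IRE1KO, against 42.7, 39.6, 45.9 and 62.1 CPM in WT. The log2 fold changes of Fzd5 and Fzd4 were -0.28 ± 0.12 and -0.61 ± 0.25 SE, with an adjusted p of 0.276 for both in edgeR. Without WT library 4 they were -0.12 for Fzd5 and -0.23 for Fzd4. Lrp6, the coreceptor with the broader expression, had 167 to 176 CPM in IRE1KO, against 169, 166, 172 and 234 CPM in WT. Lrp5, the coreceptor tied to bone mass, had 78.0 to 98.9 CPM in IRE1KO and 81.1 to 101 CPM in WT. Fzd8 (29.8 to 31.9 CPM in IRE1KO, 28.0 to 46.4 CPM in WT) and Fzd3 (8.44 to 11.01 and 7.52 to 10.7 CPM) overlapped too. For Fzd1, Fzd2, Fzd4, Fzd5, Fzd8, Fzd9, Lrp5 and Lrp6, WT library 4 was the highest of the 4 WT libraries.

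The secreted antagonists Sfrp1 and Dkk3 had the highest RPKM of the 48 genes in each library except WT library 4, where Sfrp2 lay above Dkk3. Sfrp1 and Sfrp2, which carry a Frizzled-like domain and bind Wnt ligands, were at 81.5 ± 18.96 and 32.3 ± 14.8 RPKM in IRE1KO (SD, n = 5) and 86.4 ± 73.6 and 46.2 ± 57.6 RPKM in WT (SD, n = 4). Sfrp2 ranged from 19.2 to 57.5 RPKM in IRE1KO and 7.12 to 131 RPKM in WT, and so was not above Fzd1 in each library. Sfrp1 had 342, 411, 271, 468 and 289 CPM in IRE1KO libraries, against 196, 156, 308 and 851 CPM in WT libraries. Sfrp2 had 59.2, 68.5, 41.3, 124 and 54.9 CPM in IRE1KO libraries, against 35.4, 15.3, 64.3 and 283 CPM in WT libraries. Both were highest in WT library 4 and lowest among the WT libraries in library 2, and within IRE1KO both were highest in library 4 and lowest in library 3. The log2 fold change was -0.09 ± 0.46 SE for Sfrp1 and -0.52 ± 0.73 SE for Sfrp2, and without WT library 4 it was 0.69 for Sfrp1 and 0.86 for Sfrp2. Neither passed in any setting.

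Dkk3, a divergent Dickkopf protein at 74.0 ± 5.28 RPKM in IRE1KO and 78.8 ± 19.4 RPKM in WT, had 230 to 271 CPM in IRE1KO, against 173, 264, 314 and 307 CPM in WT. Dkk2, which binds Lrp6, had 64.3 to 80.6 CPM in IRE1KO, against 41.4, 93.6, 101 and 72.0 CPM in WT. In both, the IRE1KO libraries lay within the WT range. Sfrp4, whose loss in humans and mice thins cortical bone, had 2.33, 3.22, 3.72, 2.05 and 3.93 CPM in IRE1KO libraries, against 2.09, 5.39, 5.35 and 5.43 CPM in WT libraries. WT library 1 lay among the IRE1KO libraries and the other 3 WT libraries above all of them. The log2 fold change was -0.58 ± 0.31 SE (adjusted p = 0.370, edgeR). Without WT library 1 it was -0.82 with an adjusted p of 0.0499, the range over the alternatives being 0.0499 to 0.613. The fit without WT library 1 called 8.63% of all tested genes. Dkk4 and Sfrp5 had 0 counts in all libraries, and Dkk1, an inhibitor of bone formation, had 1 count in all 9 libraries together.

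Apart from Axin2, the tested feedback inhibitors overlapped between the groups. Znrf3, a ubiquitin ligase that removes Frizzled receptors, had 19.3, 18.1, 18.6, 18.9 and 17.9 CPM in IRE1KO libraries, against 19.9, 15.7, 13.8 and 12.3 CPM in WT libraries. WT library 1 was the highest of all 9, and the log2 fold change was 0.26 ± 0.12 SE (adjusted p = 0.317, edgeR). Without that library it was 0.41 with an adjusted p of 0.0215 (0.0215 to 0.571 over the alternatives), in a fit that called 8.63% of all tested genes. Apcdd1, a membrane inhibitor of Wnt signalling, had 8.83, 11.4, 10.8, 7.65 and 8.77 CPM in IRE1KO libraries, against 7.96, 8.77, 6.77 and 6.58 CPM in WT libraries. The groups overlapped, with a log2 fold change of 0.33 ± 0.14 SE (adjusted p = 0.276, edgeR).

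Nkd1, a binding partner of Dishevelled and a target of the pathway, had its highest values in WT. It had 4.12, 4.30, 4.30, 5.60 and 5.90 CPM in IRE1KO libraries, against 4.70, 4.77, 7.32 and 16.6 CPM in WT libraries. Its log2 fold change was -0.78 ± 0.37 SE (adjusted p = 0.323, edgeR), and -0.21 without WT library 4. Its relative Nkd2 had 41.0 to 51.8 CPM in IRE1KO and 35.7 to 58.9 CPM in WT. Rnf43, which works as Znrf3 does, reached at most 11 counts in a library. Of the TCF/LEF factors, Tcf7 had 5.83 to 7.43 CPM in IRE1KO and 5.01 to 7.95 CPM in WT. Lef1 was low, at 0.479 to 1.11 CPM in IRE1KO, against 2.09, 1.18, 0.555 and 0.679 CPM in WT.

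**Figure D4:**
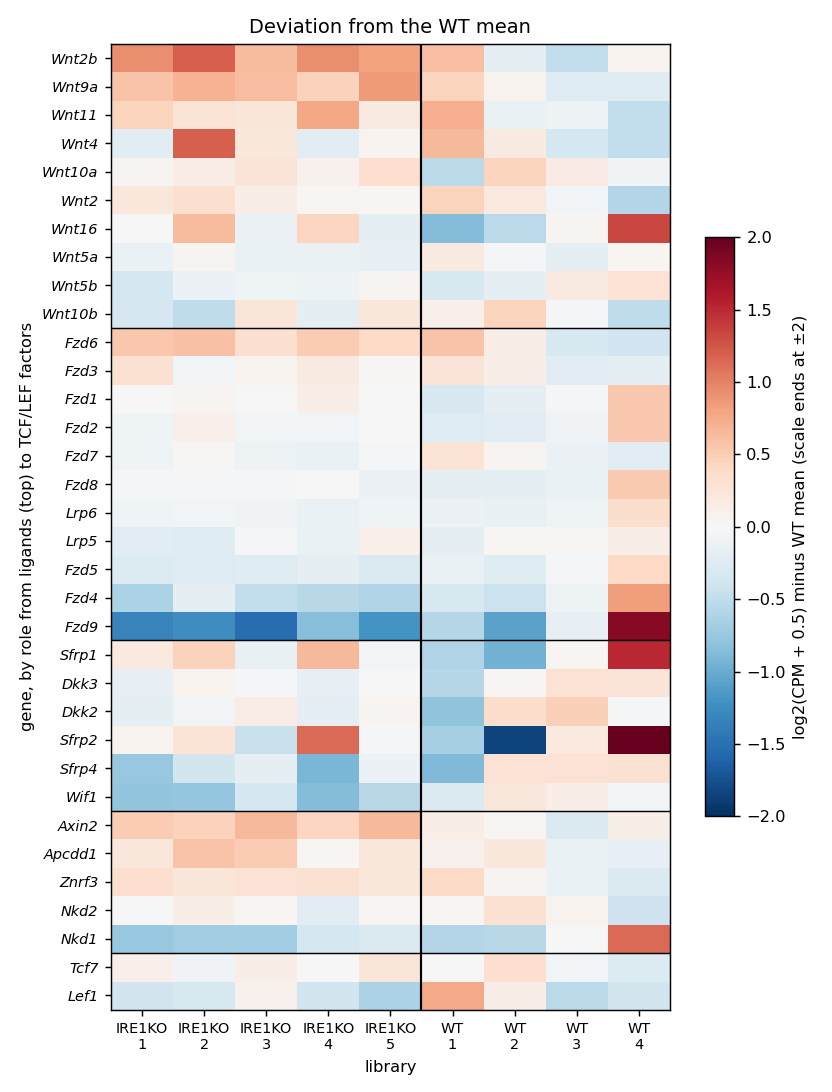
Deviation of log2(CPM + 0.5) from the WT mean (colour, scale ending at ±2) for the 34 tested genes (rows, by role) in the 5 IRE1KO libraries (left of the line) and the 4 WT libraries (right). WT library 4 is high for Sfrp1, Sfrp2, Wnt16, Nkd1, Fzd9 and Fzd4, and WT library 1 shares the sign of the IRE1KO libraries for Wnt2b, Wnt9a, Wnt11, Fzd6 and Znrf3.

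The Wnt genes varied more among WT than among IRE1KO libraries. The SD of log2(CPM + 0.5) was larger in WT for 31 of the 34 genes (91.2%), against 82.8% of all tested genes, with a median of 0.142 in IRE1KO and 0.389 in WT. Over all tested genes the medians were 0.0755 in IRE1KO and 0.159 in WT. WT library 4 was the highest WT library for 14 of the 34 genes and the lowest for 10, and over all tested genes it was the highest for 37.9% and the lowest for 37.7%. WT library 1 was the highest for 12 and the lowest for 11, against 31.0% and 31.1% of all tested genes.

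Leaving out 1 library moved the calls. Without WT library 1, 7 of 35 tested Wnt pathway genes passed in edgeR, against 8.63% of all genes: Axin2, Wnt9a, Wnt2b, Znrf3 and Fzd6 were higher and Wif1 and Sfrp4 lower. In each of these 7, WT library 1 was the WT library nearest to or among the IRE1KO libraries. Leaving it out thus widened the difference by construction, and its p-values do not stand in for those with all libraries. Calls over all genes rose from 87 to 1192 in that fit. Without WT library 4, Axin2 was the gene that passed of 35, against 2.9% of all genes. For Axin2, WT library 4 was the next nearest to IRE1KO after WT library 1. Leaving out IRE1KO library 1, 2, 3, 4 or 5 in turn, none passed, against 0.0439%, 0.0146%, 0.0585%, 0.0587% and 0.022% of all genes. Without WT library 2 or WT library 3 none passed either, against 0.0508% and 0.0218%. The 5 that DESeq2 called with all libraries were Axin2, Wnt9a, Wnt2b, Wif1 and Fzd9.

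**Figure D5:**
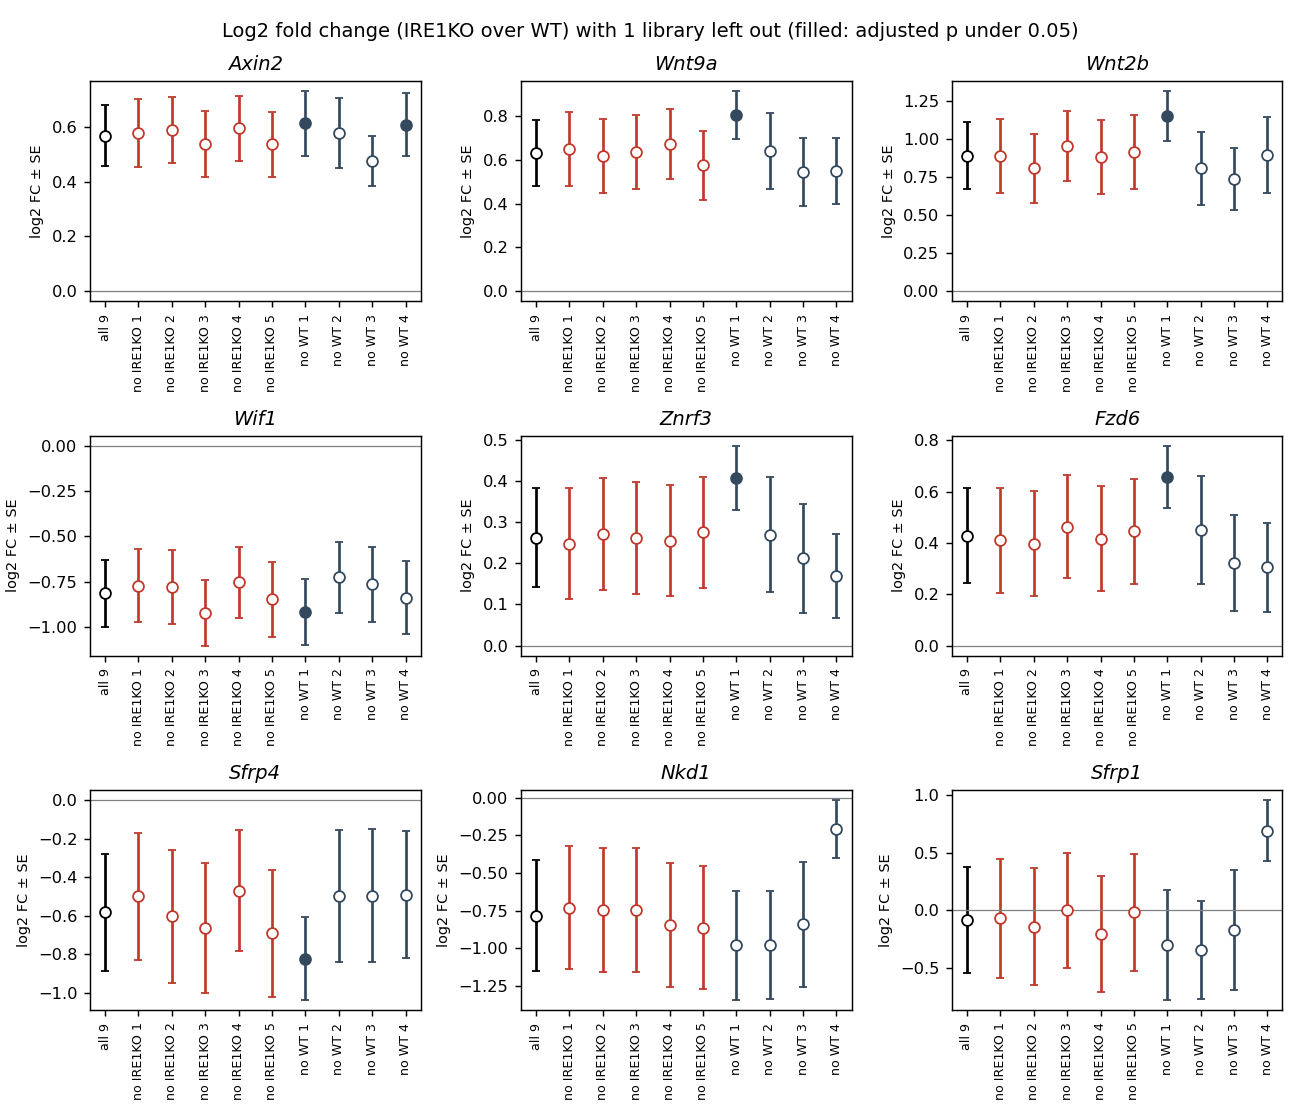
Log2 fold change of IRE1KO over WT (y axis, with SE bars) for 9 genes, with all 9 libraries and with each left out in turn (x axis, IRE1KO libraries left of WT libraries). Filled points passed an adjusted p of 0.05. The sign of Axin2, Wnt9a, Wnt2b and Wif1 held in each fit, while Sfrp1 was at 0.69 without WT library 4, against -0.09 with all libraries.

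Markers of cell types are given by library beside these values, and no correlation with the Wnt genes was worked out. The summed CPM of 10 glial and pigment cell markers was 23.2 to 29.8 in IRE1KO, against 31.2, 66.0, 74.99 and 98.8 in WT, with WT library 1 the nearest to the IRE1KO libraries. Of 7 tested, edgeR called Ngfr lower (0.379% of all tested genes were) and DESeq2 called 6 (4.14% of all genes). The adjusted p of Ngfr was 0.0452 in edgeR, and 8.1e-08 to 0.275 over 17 alternatives, of which it passed 7. Dct had 0 counts, and Sox10 was at most 0.972 CPM in IRE1KO and 9.82 CPM in WT. For 8 adipocyte markers the sum was 56.4 to 63.8 CPM in IRE1KO and 81.5 to 142 CPM in WT. Of 5 tested, edgeR called Plin4, Lpl and Fabp4 lower (0.379% of all tested genes were), at an adjusted p of 0.0416, 0.0475 and 0.0494. Over 17 alternatives they passed 8, 6 and 5, with the adjusted p reaching 0.178 for Plin4, 0.236 for Lpl and 0.187 for Fabp4. Cidec had 0 counts, and Adipoq was at most 0.0512 and 0.505 CPM. The 6 smooth muscle and pericyte markers, none of which passed, summed to 4842 to 5352 CPM in IRE1KO, against 7027, 4999, 3691 and 3191 CPM in WT. Among the WT libraries, library 1 was the highest for this sum, as it was for Wnt9a, Fzd6 and Znrf3 and for 31.0% of all tested genes. The IRE1KO sums lay inside the WT range, whereas Wnt9a was higher in each IRE1KO library than in any WT library. The 10 osteoblast lineage markers summed to 36891 to 40991 CPM in IRE1KO and 27483 to 54007 CPM in WT, the highest being WT library 4. Col1a1 and Col1a2 made up nearly all of this sum. Lower down, Ibsp had 0.097 to 1.01 CPM in IRE1KO and 0.766 to 3.92 CPM in WT, Dmp1 0.051 to 0.456 and 0.306 to 1.93 CPM, and Phex 0.82 to 1.44 and 1.23 to 5.69 CPM. The median log2 fold change of the 8 tested was -0.13. At an unadjusted p under 0.05 in edgeR there were 3 (16.5% of all tested genes), with 0 called by edgeR and Ibsp called by DESeq2. Chondrocyte markers summed to 722 to 1424 CPM in IRE1KO and 1391 to 1443 CPM in WT, of which Col2a1 made up 615 to 1271 and 1098 to 1300 CPM. The median log2 fold change of the 10 tested was -0.70, with 4 at an unadjusted p under 0.05 in edgeR (16.5% of all tested genes), 0 called by edgeR and Lect1 called by DESeq2. Macrophage and osteoclast markers summed to 225 to 293 and 151 to 290 CPM, and suture and dermal fibroblast markers to 1785 to 2707 and 1388 to 4125 CPM. Endothelial markers summed to 7.59 to 11.5 CPM in IRE1KO and 8.41 to 20.7 CPM in WT. Of 4 tested, edgeR called Pecam1 lower (0.379% of all tested genes were). Pecam1 had at most 18 counts in a library, its adjusted p was 0.0497, and it passed 5 of 16 alternatives, with the adjusted p reaching 0.264. The part of these cells in the Wnt values was not tested.

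Other genes of the pathway came from lists by function. The genes named from each list are those with the smallest p, a choice that favours genes without overlap. Over all tested genes the groups did not overlap for 6.94%, and the share over the lists was not worked out. Of the R-spondin axis, which boosts Wnt signalling by clearing Znrf3 and Rnf43 from the membrane, 0 of 6 tested genes passed. The R-spondin receptor Lgr4 had 62.9, 59.3, 66.0, 59.0 and 65.9 CPM in IRE1KO libraries, against 73.4, 84.0, 107 and 110 CPM in WT libraries, with no overlap (log2 fold change -0.58 ± 0.12 SE, adjusted p = 0.0630, edgeR). The ligand Rspo2 had 20.8 to 24.9 CPM in IRE1KO, against 19.6, 35.8, 50.9 and 52.0 CPM in WT, and Rspo1 at most 1.69 CPM in any library. Among other antagonists, 1 of 8 tested fell (0.379% of all tested genes did). It was Igfbp4, which binds insulin-like growth factors and also inhibits Wnt receptors. Igfbp4 averaged 628 ± 48.3 CPM in IRE1KO (SD, n = 5) and 963 ± 144 CPM in WT (SD, n = 4), with a log2 fold change of -0.62 ± 0.10 SE and no overlap. Its adjusted p was 0.0452 in edgeR and 3.1e-06 to 0.146 over the alternatives, 7 of 17 of which it passed. Kremen1, a receptor of Dickkopf proteins, had 104 to 116 CPM in IRE1KO and 92.9 to 101 CPM in WT, with no overlap and an adjusted p of 0.123 in edgeR. Dact2, a Dishevelled-binding protein, overlapped between the groups.

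In Wnt secretion, 0 of 6 tested genes passed. Gpc3, a membrane proteoglycan that binds Wnt, had 76.8 to 107 CPM in IRE1KO and 31.4 to 69.1 CPM in WT, with no overlap (adjusted p = 0.130, edgeR), while Wls, the carrier of Wnt proteins to the surface, and Gpc6 overlapped. Of 14 tested noncanonical receptors and polarity genes none passed, and the coreceptor Ptk7 had 375 to 420 CPM in IRE1KO and 251 to 359 CPM in WT, with no overlap. Daam2 and Prickle2, next by p, overlapped. None of 19 tested genes of beta-catenin transduction passed. Apc2, a relative of the tumour suppressor Apc, had 6.91 to 9.73 CPM in IRE1KO and 10.6 to 19.1 CPM in WT, with no overlap (adjusted p = 0.0597, edgeR). The casein kinases Csnk1a1 and Csnk1g2 had log2 fold changes of 0.09 ± 0.037 and 0.08 ± 0.034 SE, without overlap. Lack of overlap, found in 6.94% of all tested genes, is given here for genes picked by their small p. Of 14 tested TCF cofactors none passed, and Pygo2, Tle2 and Tle1, the first by p, overlapped between the groups. Of 13 tested further targets of beta-catenin none passed, while Bambi, a decoy receptor for TGF-beta and BMP ligands, had 8.65 to 9.46 CPM in IRE1KO and 10.1 to 13.1 CPM in WT. Fgf18, a growth factor of the calvaria, had 2.56 to 3.93 CPM in IRE1KO and 1.36 to 2.30 CPM in WT, and Wisp2 overlapped. Counts at an unadjusted p under 0.05 in edgeR were 1 of 6, 3 of 6, 2 of 8, 3 of 14, 3 of 19, 1 of 14 and 4 of 13 for secretion, the R-spondin axis, other antagonists, noncanonical genes, transduction, cofactors and further targets, against 16.5% of all tested genes. DESeq2 called Gpc3, Lgr4, Rspo2, Igfbp4, Kremen1, Ptk7, Apc2, Bambi, Fgf18 and Wisp2 of these, against 4.14% of all tested genes, and limma voom 0.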

How the data were processed

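The authors deposited raw counts per gene and library as whole numbers with no normalization. STAR, limma and mm10 are named without role or version, per the submitters' processing notes. Libraries were directional and from polyadenylated RNA, per the labels' protocols, but how reads were counted, with which annotation and strand setting, was not stated. Counts of overlapping genes could therefore be shared.

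Counts were kept by filterByExpr, scaled by TMM and compared with the quasi-likelihood test of edgeR 4.0.16 (robust, genotype as the sole term) in R 4.3.3, and p-values were adjusted by Benjamini-Hochberg over 13712 genes. SEs are the log2 fold change divided by the root of the F statistic. DESeq2 1.42.0, limma 3.58.1 voom, other scalings and filters, each library left out and a replicate block were alternatives. Exon lengths and positions come from GENCODE M21 (GRCm38), which need not be the release counted. RPKM used the union of exons. On simulated counts over 13712 genes, 55.2%, 80.6% and 95.5% of changes of 1.5, 2 and 4-fold were recovered, and 9 of 163 calls were false. The simulation gave both groups the same spread and drew each gene on its own. In the data the SD was larger in WT for 82.8% of tested genes, so these rates are not the power of this comparison. Tables and figures used Python 3.11.15, pandas 2.3.3 and matplotlib 3.10.9.

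The genes and lists were chosen with earlier results of these data known. Genes named by rule were those with an unadjusted p under 0.05, no overlap, or a mean of at least 20 CPM. Other Wnt genes were named by role, most of the tested ones with ranges of CPM, and Wnt16 and Lef1 with each WT value. Znrf3, Nkd1 and Sfrp4 were also outside this rule, and were chosen for fuller description after their values were seen. From each list the 3 genes with the smallest p were named. Each library is a pool that the labels call a biological replicate. The floor covers counting error only.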

Additional observations from a re-analysis of the deposited data

Results flagged for a closer look

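In 68 groups of 4 or 5 libraries (34 tested genes in 2 groups), 6 had 1 library far from the rest by Dixon's criterion, which chance gives in about 1 of 20 groups. WT library 4 was the outlying one for Fzd9 at 10.4 CPM (other WT libraries 0.975 to 2.27 CPM), for Lrp6 at 234 CPM (166 to 172 CPM) and for Fzd8 at 46.4 CPM (28.0 to 29.2 CPM). WT library 1 was low for Sfrp4 at 2.09 CPM, against 5.35 to 5.43 CPM in the other WT libraries. IRE1KO library 2 was high for Wnt4 at 4.61 CPM (other IRE1KO libraries 1.41 to 2.12 CPM) and for Wnt5a at 97.8 CPM (83.9 to 85.6 CPM).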

How the results depend on the processing

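Over all genes, 87 were called with the settings reported, 46 with upper-quartile scaling, 45 with no filter on low counts, 568 by DESeq2, 16 by limma voom, and 2 to 1192 with 1 library left out. The Wnt pathway genes called numbered 0 with the settings reported, 5 by DESeq2 and 0 to 7 with 1 library left out. Those whose groups did not overlap numbered 4 (6.94% of all tested genes did not), and 4 to 8 with 1 library left out. The 8 came without WT library 1. Fewer libraries in a group leave less room for overlap in any gene, and the share over all genes was not worked out for these fits. The median log2 fold change of the Wnt genes, -0.082 with the settings reported, was -0.014 in limma voom and -0.024 with the replicate block. Dropping WT library 1 gave -0.138, and dropping WT library 4 gave -0.013. In all 17 alternatives the median moved by less than the spread between libraries (SD 0.070). That spread is nearly as large as the median itself, so this rule does not show that the median was stable. Several fold changes that did not pass changed sign, Sfrp2 (-0.52 with the settings reported) by the most: Fzd1 was at -0.011 with upper-quartile scaling and -0.0021 with at least 1 CPM in 4 libraries, and Sfrp1 and Sfrp2 were at 0.22 and 0.21 in limma voom and at 0.29 and 0.20 with the replicate block. With 1 library left out the ranges were -0.10 to 0.22 for Fzd1, -0.15 to 0.079 for Nkd2, -0.15 to 0.023 for Fzd7, -0.33 to 0.043 for Dkk2, -0.25 to 0.0031 for Dkk3, -0.14 to 0.16 for Fzd2, -0.16 to 0.029 for Lrp6, -0.15 to 0.13 for Fzd8, -0.35 to 0.69 for Sfrp1 and -0.88 to 0.86 for Sfrp2. The cause was not tested. Library numbers are not stated to pair IRE1KO with WT pools. Deviations from the group means of equal numbers correlated at 0.168, -0.227, -0.185 and 0.501. Unequal numbers ran from -0.567 (IRE1KO library 4 with WT library 2) to 0.546 (IRE1KO library 3 with WT library 2), so equal numbers did not stand out. With the number as a replicate block on libraries 1 to 4 of each group, 0 genes were called in edgeR. At an unadjusted p under 0.05 there were 1594 of 13658 tested genes, and 8 of 34 tested Wnt pathway genes. Genes at or near 3 counts, such as Wnt1 or Dkk1, are beyond this depth.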
